A study of Mus musculus with 12 samples.

Results

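Late markers of disease-associated microglia, the cells that gather at amyloid plaques, were followed as a set of 10 genes: Cst7, Clec7a, Itgax, Spp1, Gpnmb, Lpl, Cd9, Igf1, Lgals3 and Ank. They were taken by symbol, through the Ensembl identifier, as 10 of the 56980 gene identifiers in the count table. All 10 passed the filter on low counts and were tested among 19152 genes. mRNA from bulk hippocampal tissue was sequenced for 12 male mice, with 3 libraries per group and 1 animal per library. The study asked how the loss of TREM2 changes the response of microglia and other glia to amyloid-β. The groups were AppNL-G-F; Trem2 KO at 9 months, AppNL-G-F; Trem2 KO at 3 months, AppNL-G-F at 9 months and AppNL-G-F at 3 months. They are called Trem2 KO and AppNL-G-F below. Every mouse carried the AppNL-G-F knock-in, a humanised App allele with familial Alzheimer mutations expressed from its own promoter. No mouse without that allele is in the 4 groups, so ageing and the growth of amyloid cannot be told apart here. The labels do not say which part of Trem2 was removed or in which cells.

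Microglia that meet amyloid, dying cells or myelin debris switch off part of their resting programme and switch on a shared set of lysosomal, lipid and surface genes. In mice this change has been described in steps, with early genes such as Tyrobp and Apoe that appear without TREM2 and late genes that need it. TREM2 is a surface receptor for lipids and lipoproteins that signals through Tyrobp. The late set is mixed in function: Clec7a is the β-glucan receptor dectin-1, Itgax is the integrin chain CD11c, Gpnmb is a glycoprotein of lysosomes, and Cd9 is a tetraspanin that organises membrane proteins. Cst7 encodes cystatin F, an inhibitor of lysosomal cathepsins, and Spp1, Igf1 and Lgals3 encode the secreted osteopontin, insulin-like growth factor 1 and galectin-3. Lpl is a secreted lipase of lipoprotein triglycerides, and Ank is a membrane protein known for the export of pyrophosphate precursors. Several of them are not made by microglia alone: Lpl is also known from neurons, Cd9 from oligodendrocytes and Igf1 from interneurons.

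Cst7, Clec7a and Itgax differed by the largest log2 amounts of the 10 genes at 9 months, so the 250 bases before the first listed start of each are shown, 5′ to 3′ on the strand of the gene, from RefSeq on GRCm38.p6. They lie at chr2:150570165-150570414 on the plus strand (Cst7), chr6:129472780-129473029 on the minus strand (Clec7a) and chr7:128129300-128129549 on the plus strand (Itgax). Capitals mark matches on either strand to GAGGAA, a core bound by PU.1 and other ETS factors, to TGANTCA, the AP-1 site, or to CACGTG, an E-box.
Cst7: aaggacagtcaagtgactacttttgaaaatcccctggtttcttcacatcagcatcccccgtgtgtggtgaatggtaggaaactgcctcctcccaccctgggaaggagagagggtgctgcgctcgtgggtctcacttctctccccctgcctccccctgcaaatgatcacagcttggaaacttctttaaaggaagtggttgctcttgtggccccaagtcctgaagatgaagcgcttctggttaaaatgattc
Clec7a: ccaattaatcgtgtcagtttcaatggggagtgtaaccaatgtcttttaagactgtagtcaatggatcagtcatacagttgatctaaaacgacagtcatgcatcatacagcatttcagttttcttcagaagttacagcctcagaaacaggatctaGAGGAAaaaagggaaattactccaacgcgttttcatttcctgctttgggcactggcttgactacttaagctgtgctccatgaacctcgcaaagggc
Itgax: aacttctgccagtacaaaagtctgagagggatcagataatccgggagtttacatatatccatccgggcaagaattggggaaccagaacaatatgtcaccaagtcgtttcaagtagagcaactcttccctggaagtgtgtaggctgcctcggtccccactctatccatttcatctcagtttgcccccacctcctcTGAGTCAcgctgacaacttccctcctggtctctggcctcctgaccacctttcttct
The window of Clec7a held GAGGAA and that of Itgax held TGAGTCA, while that of Cst7 held none of the 3 motifs. RefSeq promoters were matched for 9 of the 10 genes, all but Lpl. Of these 9, GAGGAA was found in 4 (Clec7a, Spp1, Igf1 and Ank), against 23.3% of 32851 mouse promoters of that length. TGANTCA was found in 2 (Itgax and Igf1), against 6.75% of promoters. CACGTG was found in 0, against 6.02%. No matches overlapped, and these are matches of letters, not binding sites. By annotation on GRCm38 the genes are spread over chromosomes 2 (Cst7), 5 (Spp1), 6 (Clec7a, Gpnmb and Cd9), 7 (Itgax), 8 (Lpl), 10 (Igf1), 14 (Lgals3) and 15 (Ank). Exons of Spp1, Cd9 and Ank overlap another annotated gene by 309, 218 and 65 bases, and the overlapping genes held at most 5, 7 and 0 counts in a library.

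Total counts per library ran between 14627892 and 24594655, so that 3 counts, the most that a count of 0 allows, equalled 0.122 to 0.205 CPM (counts scaled to library size). That limit covers counting error only, because the reads carry no molecular identifiers. Trem2 itself stood at 3.62, 3.83 and 3.77 CPM in Trem2 KO libraries at 9 months, against 55.6, 52.6 and 49.8 CPM in AppNL-G-F libraries of that age. At 3 months it stood at 1.85, 1.93 and 2.17 CPM in Trem2 KO and at 10.4, 8.05 and 9.17 CPM in AppNL-G-F libraries, so every library stood on the side its label gives. App was called in no comparison. All 13 markers of hippocampal neurons were present, with a sum of 4415 to 5289 CPM per library. Markers of meningeal and perivascular fibroblasts were higher in the 3 Trem2 KO libraries at 9 months (mean log2 CPM 4.602, 4.123 and 4.633) than in the other 9 (2.99 to 3.85). Choroid plexus markers varied within groups, between 1.04 and 6.58 log2 CPM over the 12 libraries. Both tissues border the hippocampus, and their values are given beside the results they move with.

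**Figure D1:**
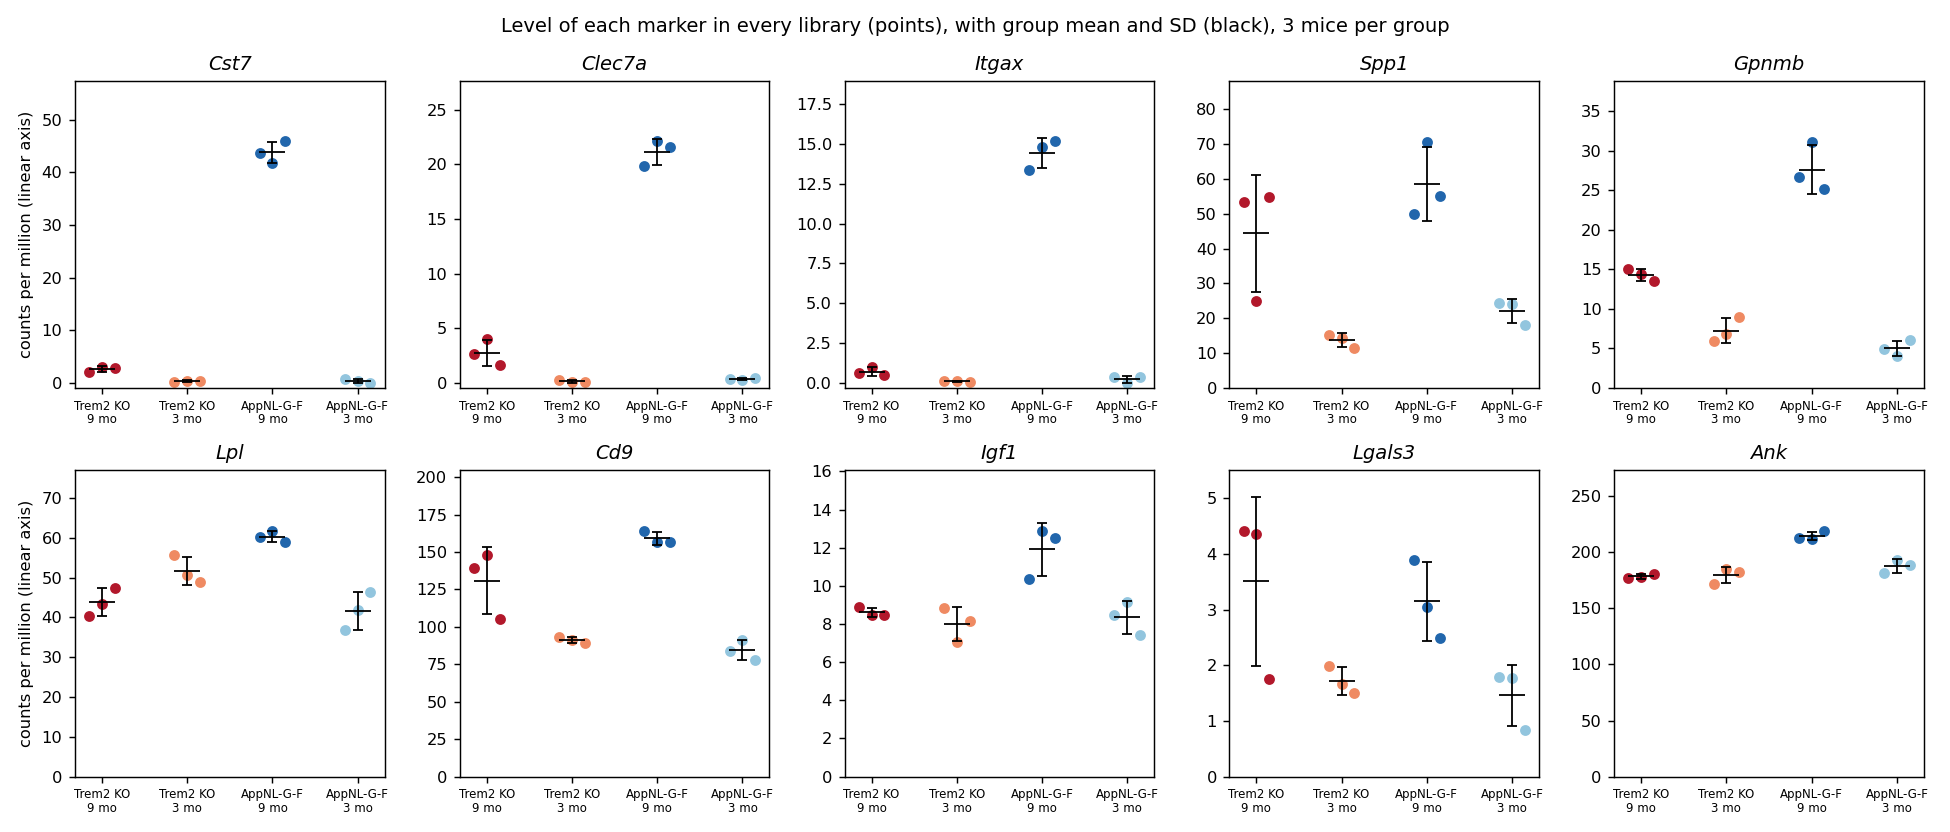
Level of each of the 10 late markers in CPM (vertical axes, linear) in the 12 libraries, by group (AppNL-G-F; Trem2 KO at 9 and 3 months, then AppNL-G-F at 9 and 3 months). Points are libraries and black bars are the group mean and SD of 3 mice. Cst7, Clec7a and Itgax reach 13.3 to 45.9 CPM in the AppNL-G-F libraries at 9 months and at most 4.03 CPM in every other library, while Ank lies between 172 and 219 CPM in all 12.

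The comparison of Trem2 KO with AppNL-G-F mice at 9 months asks how the late markers stand without Trem2 when amyloid is established. Of the 10 genes, 6 were lower in Trem2 KO hippocampus (Cst7, Clec7a, Itgax, Gpnmb, Lpl and Ank) and 0 were higher at an adjusted p under 0.05 (quasi-likelihood tests in edgeR, adjusted over all genes after Benjamini and Hochberg). Over all 19152 genes, 1.39% were called lower and 0.684% higher, 2.08% in all. The sizes fell far apart, between a 20.04-fold lower level for Itgax and a 1.20-fold lower level for Ank. The members' median log2 fold change was -0.47, against 0.007 over all genes. Libraries of the 2 genotypes did not overlap for 8 members, all lower in Trem2 KO (the 6 above with Cd9 and Igf1), where 9.04% of all genes did the same and 8.28% were higher without overlap. In bulk tissue, fewer cells of a type and less RNA per cell cannot be told apart.

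Among the receptors, Itgax, which pairs with Itgb2 to form a complement receptor, stood at 0.66, 1.01 and 0.48 CPM (15, 21 and 9 counts) in Trem2 KO libraries at 9 months, against 13.3, 14.8 and 15.2 CPM in AppNL-G-F libraries. The groups were wide apart, and the log2 fold change was -4.32 ± 0.29 (standard error; edgeR adjusted p = 4.72e-08). Clec7a, which signals through Syk, stood at 2.69, 4.03 and 1.64 CPM in Trem2 KO and at 19.8, 22.1 and 21.6 CPM in AppNL-G-F libraries. Its highest Trem2 KO library was still well under the lowest AppNL-G-F library, with a log2 fold change of -2.92 ± 0.21 (edgeR adjusted p = 1.12e-07). Gpnmb stood at 15.1, 14.4 and 13.5 CPM in Trem2 KO and at 26.7, 31.1 and 25.1 CPM in AppNL-G-F libraries. It was 1.93-fold lower in Trem2 KO mice without overlap, a log2 fold change of -0.95 ± 0.14 (edgeR adjusted p = 0.000352). Cd9 stood at 139, 148 and 105 CPM in Trem2 KO, against 164, 157 and 157 CPM in AppNL-G-F libraries. The 3rd Trem2 KO library was the low one, and the log2 difference of -0.28 ± 0.10 did not pass the test (edgeR adjusted p = 0.217). It was called without Trem2 KO replicate 2 (-0.38, edgeR adjusted p = 0.0473) and without the filter on low counts (-0.27, edgeR adjusted p = 0.000462). The fit without the filter gave Cst7 an edgeR adjusted p of 4.09e-152, against 6.02e-07 in the main fit, at nearly the same log2 fold change. Its p-values, here and below, are therefore not comparable with those of the main fit.

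Of the secreted products and the protease inhibitor, Cst7 changed most. It stood at 2.03, 3.07 and 2.86 CPM (46, 64 and 54 counts) in Trem2 KO libraries at 9 months, against 43.7, 41.8 and 45.9 CPM in AppNL-G-F libraries. The level was 16.6-fold lower in Trem2 KO mice, with a log2 fold change of -4.05 ± 0.24 (edgeR adjusted p = 6.02e-07). Spp1 stood at 53.5, 25.01 and 54.7 CPM in Trem2 KO libraries and at 49.99, 70.5 and 55.1 CPM in AppNL-G-F libraries. The groups overlapped, 2 Trem2 KO libraries lay between those of AppNL-G-F mice, and the log2 difference of -0.40 ± 0.29 did not pass the test (edgeR adjusted p = 0.616). With the fibroblast score of each library as a covariate the Spp1 difference was -1.43 ± 0.43 (edgeR adjusted p = 0.468). Igf1 stood at 8.87, 8.48 and 8.49 CPM in Trem2 KO, against 10.3, 12.9 and 12.5 CPM in AppNL-G-F libraries. Every Trem2 KO library was lower, but the log2 difference of -0.47 ± 0.13 missed the threshold (edgeR adjusted p = 0.061). It was called by DESeq2 (adjusted p = 0.0401), without the filter on low counts (edgeR adjusted p = 0.0385) and without AppNL-G-F replicate 1 (-0.56, edgeR adjusted p = 0.0466). Lgals3 stood at 4.41, 4.36 and 1.75 CPM in Trem2 KO and at 3.90, 3.06 and 2.49 CPM in AppNL-G-F libraries, where the Trem2 KO libraries lay on both sides of the others (log2 difference 0.16 ± 0.31, edgeR adjusted p = 0.879).

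The lipase and the transporter differed by smaller amounts. Lpl stood at 40.5, 43.5 and 47.5 CPM in Trem2 KO libraries at 9 months, against 60.2, 61.7 and 59.1 CPM in AppNL-G-F libraries. The gap was clear of the spread within both groups, with a log2 fold change of -0.46 ± 0.08 (edgeR adjusted p = 0.00198). Ank stood at 177, 178 and 181 CPM in Trem2 KO and at 213, 212 and 219 CPM in AppNL-G-F libraries, a log2 fold change of -0.26 ± 0.05 (edgeR adjusted p = 0.00204). Both were called without any 1 of the 12 libraries, as were Cst7, Clec7a, Itgax and Gpnmb. Lpl, Ank and Gpnmb were no longer called with the fibroblast score of each library as a covariate, at log2 fold changes of -0.45 ± 0.15, -0.16 ± 0.08 and -0.89 ± 0.27 (edgeR adjusted p = 0.441, 0.648 and 0.404). Cst7, Clec7a and Itgax were still called in that fit, at -3.96 ± 0.50, -2.48 ± 0.42 and -4.07 ± 0.58. Standard errors were larger with the score, 0.15 against 0.08 for Lpl and 0.27 against 0.14 for Gpnmb, whose values changed little. Ank moved from -0.26 to -0.16. The score was highest in the Trem2 KO libraries at 9 months, so the score and that group cannot be told apart in full.

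**Figure D2:**
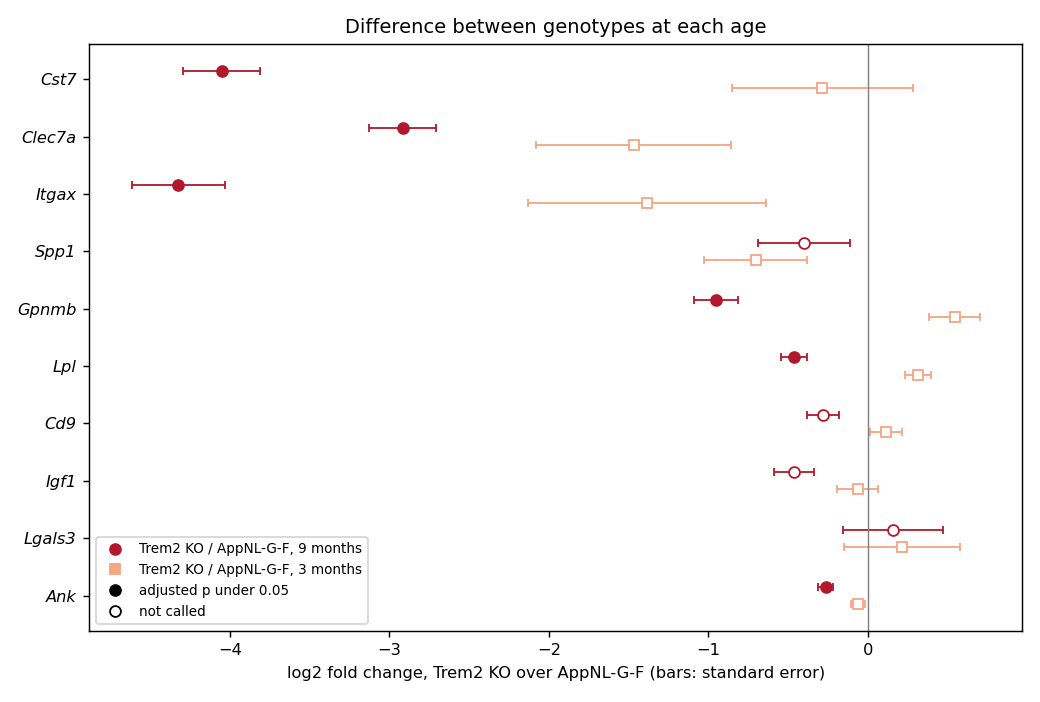
Log2 fold change of Trem2 KO over AppNL-G-F (horizontal axis) for each marker (rows) at 9 months (circles) and 3 months (squares), with bars of 1 standard error. Filled symbols have an adjusted p under 0.05: 6 genes at 9 months, between -4.32 for Itgax and -0.26 for Ank, and 0 at 3 months.

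Partners of these proteins were read beside the members. Of 33 genes known as partners, substrates, processing factors or transcriptional regulators of the members, 31 were tested at 9 months, 1 was higher and 2 were lower in Trem2 KO (9.68% of those tested, against 2.08% of all genes), and their median log2 fold change was -0.04. Itgb2, the integrin β chain that pairs with Itgax, fell by 1.02 ± 0.11 on the log2 scale (edgeR adjusted p = 7.65e-06). Ctsh, a cathepsin that cystatin F can inhibit, fell by 0.68 ± 0.09. Enpp1, which makes extracellular pyrophosphate from ATP, was higher by 0.70 ± 0.16 (edgeR adjusted p = 0.021). The kinase Syk downstream of Clec7a (-0.55 ± 0.16), the Cd9 partners Cd81 (-0.02 ± 0.05) and Igsf8 (0.04 ± 0.06), and Igfbp5, which binds insulin-like growth factors (-0.17 ± 0.06), did not pass the test. Of 20 further late genes of disease-associated microglia, 7 were lower and 0 were higher, with a median of -0.25. The chemokines Ccl6 (-1.96 ± 0.12) and Ccl3 (-2.69 ± 0.38), the lysosomal membrane protein Cd68 (-1.13 ± 0.10) and the glucuronidase Gusb (-0.76 ± 0.09) had the smallest p among them. The adhesion molecule Cadm1 (-0.17 ± 0.08), the protease inhibitor Serpine2 (-0.19 ± 0.05) and the transcription factor Bhlhe40 (-0.02 ± 0.06), the most abundant of the rest, were not called. Of 9 early genes, 4 were lower, with a median of -0.26: Tyrobp (-1.38 ± 0.13), Lyz2 (-0.87 ± 0.09), Ctsd (-0.91 ± 0.13) and Ctsb (-0.26 ± 0.05). Apoe, the main apolipoprotein of brain and a TREM2 ligand, had -0.11 ± 0.05 and was not called.

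At 3 months the comparison asks whether the genotypes already differed at the younger age. None of the 10 genes was called (0 higher, 0 lower), where edgeR called 0.59% of all genes, 0.167% higher and 0.423% lower. Clec7a, Gpnmb and Lpl had an unadjusted p under 0.05 (0.027, 0.00284 and 0.000867), and DESeq2 called 1, Lpl. The median log2 fold change of the 10 genes was -0.06, against 0.003 over all genes. Lpl did not overlap and was higher in Trem2 KO (8.65% of all genes), and Spp1 and Clec7a did not overlap and were lower (8.94% of all genes).

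The genes that led at 9 months were close to the limit of detection at 3 months. Itgax held 2, 3 and 1 counts in Trem2 KO libraries and 9, 0 and 8 counts in AppNL-G-F libraries. The summed counts of 6 and 17 gave a ratio of 0.379 relative to depth, with an exact 95% interval of 0.122 to 1.01. Clec7a held 4, 2 and 2 counts in Trem2 KO, against 10, 5 and 9 counts in AppNL-G-F libraries, a ratio of 0.358 with an interval of 0.139 to 0.823. Cst7 held 3, 11 and 8 counts in Trem2 KO and 21, 6 and 2 counts in AppNL-G-F libraries, a ratio of 0.814 with an interval of 0.446 to 1.47. At 9 months the same ratios were 0.0504 for Itgax, 0.134 for Clec7a and 0.0605 for Cst7. These intervals cover counting error only.

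The more abundant members were well above the limit of detection at 3 months. Lpl stood at 55.7, 50.8 and 48.8 CPM in Trem2 KO and at 36.8, 41.8 and 46.3 CPM in AppNL-G-F libraries. The Trem2 KO libraries were all higher, a log2 difference of 0.31 ± 0.08 (edgeR adjusted p = 0.0813; DESeq2 adjusted p = 0.0376). Gpnmb stood at 5.89, 6.86 and 9.01 CPM in Trem2 KO, against 4.97, 3.996 and 6.0 CPM in AppNL-G-F libraries, with overlap at the low end (0.54 ± 0.16, edgeR adjusted p = 0.142, and 0.011 without the filter on low counts). Spp1 stood at 15.2, 14.3 and 11.4 CPM in Trem2 KO, against 24.3, 24.0 and 18.0 CPM in AppNL-G-F libraries, all lower in Trem2 KO (-0.70 ± 0.32, edgeR adjusted p = 0.478). It was called when only the 6 libraries of this age were fitted (-0.71 ± 0.13, edgeR adjusted p = 0.0153). Cd9 (0.11 ± 0.10), Igf1 (-0.06 ± 0.13), Lgals3 (0.21 ± 0.37) and Ank (-0.06 ± 0.05) had small log2 differences and overlapping libraries. The partner genes, the other late genes and the early genes had 0 calls at this age, with 3, 3 and 3 at an unadjusted p under 0.05 in edgeR and medians of -0.01, -0.02 and -0.04.

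The comparison of 9 with 3 months in Trem2 KO mice asks what remains of the rise with age when Trem2 is missing. In edgeR's quasi-likelihood test 6 of the 10 genes rose (Cst7, Clec7a, Itgax, Spp1, Gpnmb and Cd9) and 0 fell, where 5.68% of all genes rose and 3.02% fell, 8.7% in all. The members' median was 1.01, against 0.002 over all genes. Libraries of the 2 ages did not overlap for the same 6 genes (13.5% of all genes were higher without overlap), and for Lpl, which was lower at 9 months (11.9% of all genes). Clec7a had the largest log2 fold change, 4.34 ± 0.41 (edgeR adjusted p = 3.5e-06), with 61, 84 and 31 counts at 9 months against 4, 2 and 2 counts at 3 months. The summed counts of 176 and 8 gave a ratio of 20.7, with an exact 95% interval of 10.3 to 48.7. That interval covers counting error only, not the spread between mice. Cst7 rose by 2.81 ± 0.41 (edgeR adjusted p = 0.0011), with 46, 64 and 54 counts at 9 months against 3, 11 and 8 counts at 3 months. Itgax rose by 2.80 ± 0.61 (edgeR adjusted p = 0.0074), with 15, 21 and 9 counts at 9 months against 2, 3 and 1 counts at 3 months. Its call was lost without Trem2 KO 3-month replicate 3 (2.43, adjusted p = 0.0583).

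Spp1 rose by 1.71 ± 0.32 in Trem2 KO mice (edgeR adjusted p = 0.0138), and Gpnmb rose by 0.97 ± 0.15 (edgeR adjusted p = 0.000379). Cd9, at 139, 148 and 105 CPM at 9 months against 93.3, 91.3 and 89.1 CPM at 3 months, rose by 0.52 ± 0.10 (edgeR adjusted p = 0.0074). The Spp1 call was lost without Trem2 KO 3-month replicate 2 (1.75, adjusted p = 0.0505) or 3 (1.59, adjusted p = 0.0695). Fitted on the 6 Trem2 KO libraries alone, Spp1 (1.70, edgeR adjusted p = 0.0881) and Cd9 (0.52, edgeR adjusted p = 0.0544) were not called. With the fibroblast score as a covariate the Spp1 value was 0.65 ± 0.45 (edgeR adjusted p = 0.608), and Clec7a was the 1 member still called in that fit (4.81 ± 0.60). The values of Cst7 (2.90 ± 0.65), Itgax (3.07 ± 0.85), Gpnmb (1.03 ± 0.29) and Cd9 (0.63 ± 0.20) were as large as without the score but no longer called, with edgeR adjusted p between 0.107 and 0.225. Of 10 fibroblast markers 5 rose with age in Trem2 KO mice (median 1.10), as did 4 of the 8 tested markers of border macrophages (median 1.01). The members that were not called were Lgals3 (1.06 ± 0.33, edgeR adjusted p = 0.0611), Lpl (-0.24 ± 0.08, edgeR adjusted p = 0.0678), Igf1 (0.11 ± 0.13) and Ank (-0.01 ± 0.05). Lgals3 was called by DESeq2 (adjusted p = 0.0297) and without the filter on low counts (edgeR adjusted p = 0.000362), and the fit without the filter called Lpl lower (edgeR adjusted p = 0.0211). Lgals3 was also called without Trem2 KO 9-month replicate 3 (1.362, adjusted p = 0.00237), which held 1.75 CPM where the other two held 4.41 and 4.36 CPM. Without that library Lpl was called lower (-0.31, adjusted p = 0.0257). Without AppNL-G-F 3-month replicate 1 Lpl was also called (-0.24, adjusted p = 0.0403), as was Lgals3 without AppNL-G-F 3-month replicate 3 (1.06, adjusted p = 0.0352).

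In AppNL-G-F mice, 9 of the 10 genes rose between 3 and 9 months, all except Lgals3, where edgeR called 3.95% of all genes higher and 2.71% lower, 6.66% in all. All 10 were higher at 9 months without overlap (11.2% of all genes, with 11.5% lower), and the median log2 fold change was 1.26, against -0.001 over all genes. Cst7 rose by 6.57 ± 0.31 (edgeR adjusted p = 1.31e-08), to 699 to 829 counts per library at 9 months against 2 to 21 counts at 3 months. Clec7a rose by 5.79 ± 0.28 (edgeR adjusted p = 7.95e-11) and Itgax by 5.74 ± 0.34 (edgeR adjusted p = 1.47e-09). After these 3 came Gpnmb with 2.46 ± 0.15 (edgeR adjusted p = 7.26e-10), Spp1 with 1.41 ± 0.30 (edgeR adjusted p = 0.0287) and Cd9 with 0.92 ± 0.10 (edgeR adjusted p = 0.000101). Lpl rose by 0.54 ± 0.08 (edgeR adjusted p = 0.000139), Igf1 by 0.51 ± 0.13 (edgeR adjusted p = 0.0145) and Ank by 0.19 ± 0.05 (edgeR adjusted p = 0.011). Lgals3 had 1.11 ± 0.34 (edgeR adjusted p = 0.0678). It was called at the same size by DESeq2 (adjusted p = 0.0263), without the filter on low counts (edgeR adjusted p = 0.000322) and in a fit of the 6 AppNL-G-F libraries alone (edgeR adjusted p = 0.0185).

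Calls near the threshold in AppNL-G-F mice depended on single libraries. Spp1 was called in 5 of the 12 fits without 1 library, with an adjusted p of up to 0.118; the call was lost without each AppNL-G-F library, at log2 fold changes of 1.247 to 1.502, and without Trem2 KO 3-month replicate 2 (1.40, adjusted p = 0.05 after rounding). Igf1 was not called without AppNL-G-F 3-month replicate 3 (0.43, adjusted p = 0.101) or 9-month replicates 2 (0.45, adjusted p = 0.091) and 3 (0.47, adjusted p = 0.0642). Ank was not called without AppNL-G-F 3-month replicate 1 (0.17, adjusted p = 0.0655) or 9-month replicate 3 (0.17, adjusted p = 0.0589). Lgals3 was called without Trem2 KO 9-month replicate 3 (1.11, adjusted p = 0.00897), a library outside this contrast that enters through the shared estimate of spread.

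Of the 31 tested partners 12 rose and 1 fell with age in Trem2 KO mice, and 10 rose in AppNL-G-F mice, with medians of 0.25 and 0.21. Itgb2 rose by 1.14 ± 0.12 in Trem2 KO and by 2.08 ± 0.12 in AppNL-G-F mice. Plcg2, a phospholipase downstream of Clec7a, rose by 0.67 ± 0.12 in Trem2 KO and by 1.05 ± 0.12 in AppNL-G-F mice. Ctsc, a cathepsin and target of cystatin F, rose by 0.86 ± 0.12 in Trem2 KO and by 1.06 ± 0.12 in AppNL-G-F mice, and Ctsh rose by 0.59 ± 0.09 in Trem2 KO and by 1.17 ± 0.09 in AppNL-G-F mice. Igfbp5 rose by 0.45 ± 0.06 in Trem2 KO and by 0.47 ± 0.06 in AppNL-G-F mice. Of the 20 further late genes 10 rose and 1 fell in Trem2 KO mice (median 0.32), and 14 rose and 1 fell in AppNL-G-F mice (median 0.74). The gene that fell in both, named after its values were seen, was Fabp5, a fatty acid binding protein, at -0.64 ± 0.12 in Trem2 KO and -0.64 ± 0.13 in AppNL-G-F mice.

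**Figure D3:**
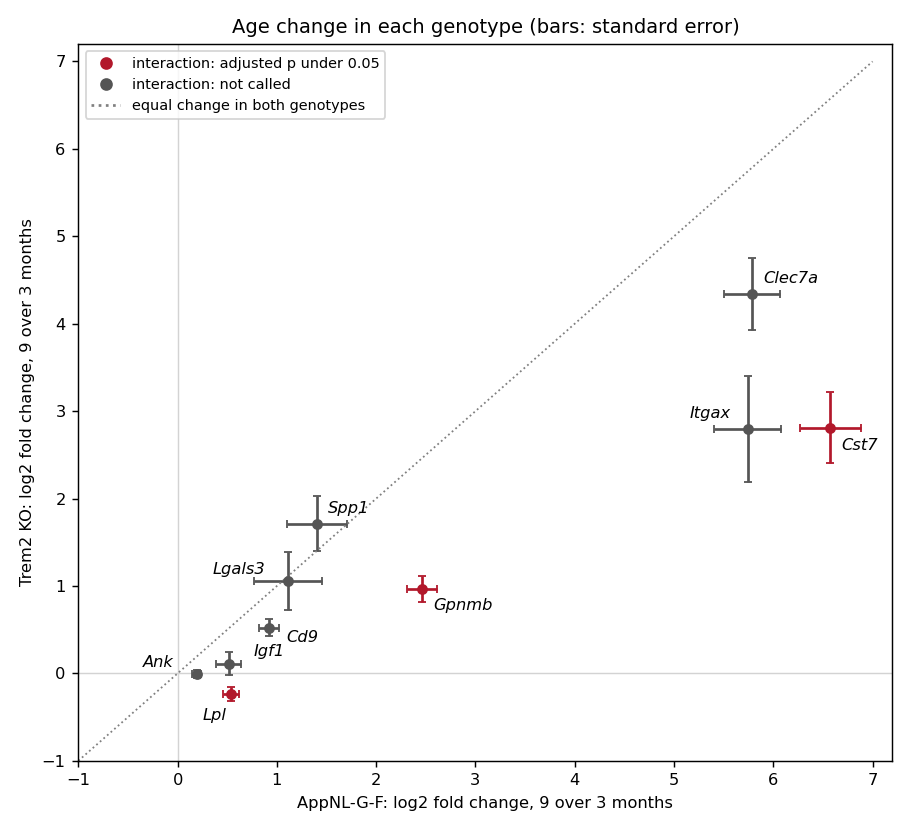
Log2 fold change of 9 over 3 months in Trem2 KO mice (vertical axis) against that in AppNL-G-F mice (horizontal axis) for the 10 markers, with bars of 1 standard error and a dotted line of equal change. Red points (Cst7, Gpnmb and Lpl) have an interaction of age and genotype with an adjusted p under 0.05. Cst7 (2.81 in Trem2 KO, 6.57 in AppNL-G-F) lies far under the line and Spp1 (1.71 and 1.41) near it.

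The interaction of age and genotype tests whether the change with age itself differed between Trem2 KO and AppNL-G-F mice. Of the 10 genes 3 had a lower log2 change in Trem2 KO, namely Cst7, Gpnmb and Lpl, and 0 had a higher one, where edgeR called 0.209% of all genes lower and 0.0574% higher, 0.266% in all. The median interaction of the members was -0.59, against 0.006 over all genes. For Gpnmb the interaction was -1.49 ± 0.21 (edgeR adjusted p = 0.00127), and for Lpl it was -0.78 ± 0.11 (edgeR adjusted p = 0.00138). Lpl ran in opposite directions, with a log2 difference of -0.24 in Trem2 KO, which did not pass the test, and a rise of 0.54 in AppNL-G-F mice. Both calls stood without any 1 of the 12 libraries. The Cst7 interaction was -3.77 ± 0.67 (edgeR adjusted p = 0.0403), but it was called in only 3 of the 12 fits without 1 library. It was lost without AppNL-G-F 3-month replicate 2, without each AppNL-G-F 9-month library, without each Trem2 KO 3-month library and without Trem2 KO 9-month replicates 1 or 3, at values of -3.98 to -3.48 and adjusted p of 0.0523 to 0.41. With the fibroblast score as a covariate the 3 interactions were -3.65 ± 0.88, -1.42 ± 0.36 and -0.76 ± 0.19 for Cst7, Gpnmb and Lpl, with edgeR adjusted p = 0.577, 0.455 and 0.406. Their values were close to those without the score, and their standard errors were larger. That score and the Trem2 KO group at 9 months cannot be told apart in full.

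For the other members the interaction did not pass the test, which does not show equal change. Itgax had -2.94 ± 0.97 (edgeR adjusted p = 0.458; DESeq2 called it with an adjusted p of 0.0251) and Clec7a had -1.45 ± 0.73 (edgeR adjusted p = 0.879). Both rest on few counts at 3 months. Spp1 had 0.30 ± 0.43, Cd9 -0.39 ± 0.14, Igf1 -0.40 ± 0.18, Lgals3 -0.06 ± 0.48 and Ank -0.20 ± 0.06, with edgeR adjusted p between 0.4 and 0.996. Without the filter on low counts the Cd9 interaction was called (-0.38, edgeR adjusted p = 0.00192). On the linear scale, the difference of group means between 9 and 3 months in Trem2 KO mice was 4.30% of that in AppNL-G-F mice for Itgax, 5.29% for Cst7, 12.7% for Clec7a, 17.0% for Igf1 and 31.1% for Gpnmb. It was 53.3% for Cd9, 84.5% for Spp1 and 106.2% for Lgals3, and it was negative for Ank (-4.46%) and Lpl (-42.6%), whose means were lower at 9 than at 3 months in Trem2 KO. These shares are given as descriptions without an interval. For Trem2 the same share was 4.04%. Among the partners, Itgb2 had a called interaction (-0.94 ± 0.17, edgeR adjusted p = 0.0143), and among the further late genes Ccl6 (-1.85 ± 0.21), Cd68 (-1.21 ± 0.15) and Gusb (-0.72 ± 0.13) did.

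Levels of different members can be compared per kilobase of exon. In Trem2 KO mice at 9 months Cd9 led with 64.1 ± 11.03 CPM per kb (SD, n = 3), followed by Ank (49.5 ± 0.59) and Spp1 (27.0 ± 10.2). Cd9 and Ank did not overlap, but the lowest Cd9 library lay close to Ank. Lpl came next at 4.18 ± 0.33 CPM per kb. Under Lpl, Cst7 (2.69 ± 0.56), Gpnmb (2.20 ± 0.12) and Lgals3 (1.89 ± 0.82) did not differ from each other beyond their SDs. The SDs of Lgals3 and Clec7a (1.06 ± 0.45) overlapped, as did those of Clec7a and Igf1 (0.87 ± 0.02). Itgax was lowest at 0.15 ± 0.06 CPM per kb. In Trem2 KO mice at 3 months Ank (49.8 ± 1.91) stood above Cd9 (44.6 ± 1.03), Spp1 (8.27 ± 1.22) and Lpl (4.94 ± 0.34), and the other 6 members were between 0.02 for Itgax and 1.11 for Gpnmb.

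In AppNL-G-F mice at 9 months the order per kilobase was Cd9 (77.8 ± 2.08), Ank (59.4 ± 1.04), Cst7 (44.4 ± 2.04), Spp1 (35.5 ± 6.47), Clec7a (8.02 ± 0.45), Lpl (5.76 ± 0.13), Gpnmb (4.24 ± 0.47), Itgax (3.00 ± 0.20), Lgals3 (1.70 ± 0.38) and Igf1 (1.20 ± 0.14). Neighbours differed by more than the SDs of both, except that libraries of Cst7 and Spp1 overlapped and that Lgals3 and Igf1 lay within their SDs. At 3 months Ank (52.0 ± 1.72) again stood above Cd9 (41.3 ± 3.27), Spp1 (13.4 ± 2.15) and Lpl (3.98 ± 0.46), and the other 6 members were between 0.05 for Itgax and 0.84 for Igf1. Cst7 made up 1.75% of the summed level of the 10 genes in Trem2 KO at 9 months and 0.328% at 3 months, against 18.4% in AppNL-G-F mice at 9 months and 0.386% at 3 months. Cd9 and Ank together with Spp1 made up most of that sum in every group.

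Microglial transcripts as a whole moved with age and genotype, so the members were also read against a core of 20 genes that microglia express broadly, such as Csf1r and C1qa. The core summed to 968 to 1039 CPM in Trem2 KO libraries at 9 months and 618 to 645 CPM at 3 months. In AppNL-G-F libraries it summed to 1668 to 1788 CPM at 9 months and 618 to 664 CPM at 3 months. At 9 months 15 of the 20 core genes were lower in Trem2 KO, with a median log2 fold change of -0.80. With age 15 rose in Trem2 KO (median 0.68) and 19 in AppNL-G-F mice (median 1.52), and at 3 months 0 were called by genotype (5 at an unadjusted p under 0.05). The abundant core gene Coro1a (average log2 CPM 6.69) did not move with the rest. It had -0.04 by genotype at 9 months, -0.18 with age in Trem2 KO and 0.06 with age in AppNL-G-F mice, and its counts are part of the core sum. Of 14 homeostatic genes, which mark resting microglia, 10 were lower in Trem2 KO at 9 months, with a median of -0.51. With age 10 of them rose in Trem2 KO and 13 in AppNL-G-F mice, and 0 fell in either.

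Core counts as library sizes move every gene by nearly the same amount, at 9 months by a median of 0.79 on the log2 scale between genotypes, so that 83.7% of all genes were called higher in Trem2 KO and 0.23% lower. On this scale 3 members stood lower in Trem2 KO at 9 months. Cst7 was at 2.65 ± 0.48 per 1000 core counts in Trem2 KO and at 25.3 ± 1.68 in AppNL-G-F mice (SD, n = 3 each), a log2 fold change of -3.26 ± 0.26 (edgeR adjusted p = 2.86e-08). For Clec7a, 2.77 ± 1.11 per 1000 in Trem2 KO stood against 12.2 ± 0.29 in AppNL-G-F mice (-2.13 ± 0.21, edgeR adjusted p = 5.2e-09). Itgax had 0.71 ± 0.24 per 1000 in Trem2 KO, against 8.33 ± 0.37 in AppNL-G-F mice (-3.53 ± 0.30, edgeR adjusted p = 1.55e-09). All 3 were thus lower beyond the core. Gpnmb, at 14.3 ± 1.07 per 1000 in Trem2 KO and 16.0 ± 1.45 in AppNL-G-F mice, did not pass the test on this scale (-0.16 ± 0.14, edgeR adjusted p = 0.294). The other 6 members had positive values, between 0.33 for Lpl and 0.94 for Lgals3, as most genes did through the common shift.

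With age in AppNL-G-F mice, 4 members rose beyond the core: Cst7 by 5.15 ± 0.33, Clec7a by 4.36 ± 0.28, Itgax by 4.32 ± 0.36 and Gpnmb by 1.04 ± 0.15 on the log2 scale. On this scale 0.454% of all genes were called higher and 94.4% lower, with a common shift of -1.42, and the other 6 members lay between -1.23 for Ank and -0.02 for Spp1. In Trem2 KO mice Clec7a (3.66 ± 0.41), Cst7 (2.14 ± 0.42), Itgax (2.13 ± 0.62) and Spp1 (1.05 ± 0.33) rose beyond the core, and Gpnmb did not pass the test (0.30 ± 0.15, edgeR adjusted p = 0.0672), where 0.799% of all genes were called higher and 74.6% lower. For Spp1 the libraries of the 2 ages overlapped on this scale. They held 24.1 to 55.3 per 1000 core counts at 9 months and 17.6 to 24.6 at 3 months. The interaction on this scale was called for Cst7 (-3.01 ± 0.66, edgeR adjusted p = 0.000978), Itgax (-2.19 ± 0.92, edgeR adjusted p = 0.0387) and Gpnmb (-0.74 ± 0.21, edgeR adjusted p = 0.00358), where 0.094% of all genes were called lower and 72.9% higher. The common shift of the interaction was 0.75, and Lpl, at -0.03 ± 0.12, did not pass the test (edgeR adjusted p = 0.82). Transcripts of Lpl, Cd9, Igf1 and Ank from cells other than microglia were not measured apart.

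**Figure D4:**
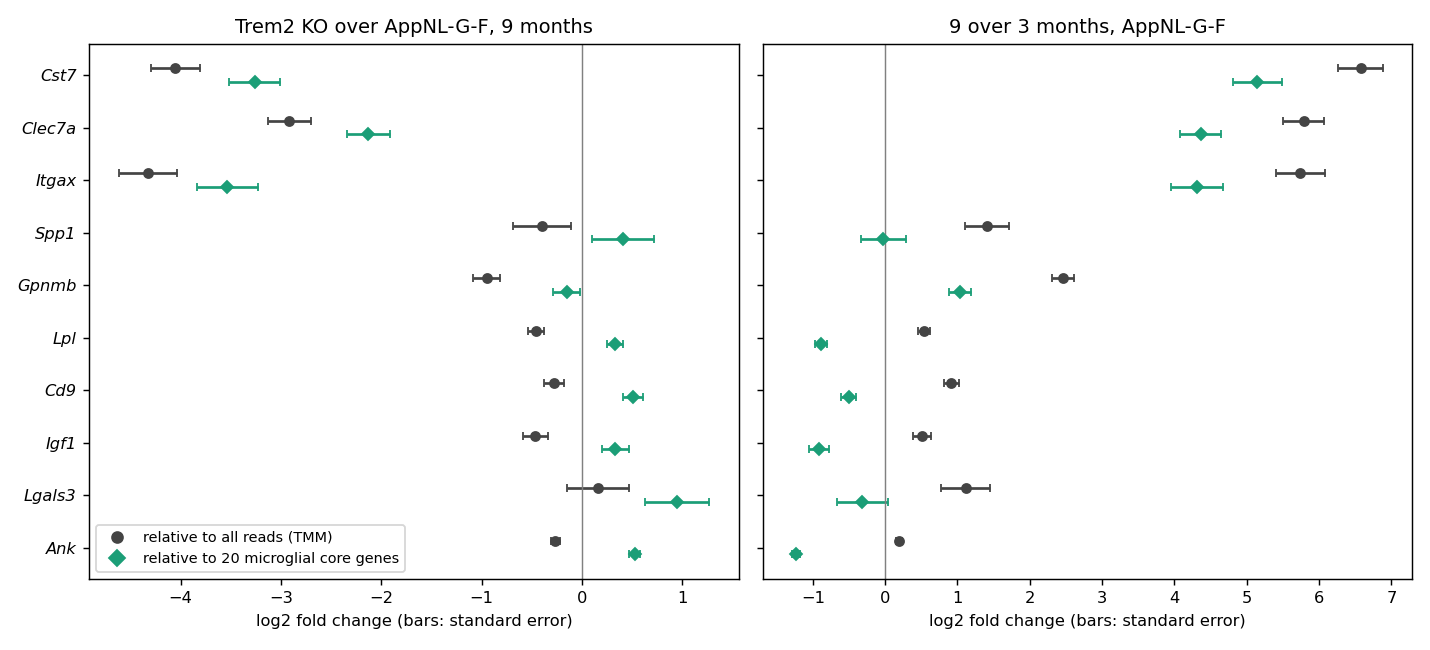
Log2 fold changes of the 10 markers relative to all reads (circles) and relative to the summed counts of 20 microglial core genes (diamonds), with bars of 1 standard error, for Trem2 KO over AppNL-G-F at 9 months (left) and 9 over 3 months in AppNL-G-F mice (right). Cst7, Clec7a and Itgax stay far from 0 on both scales (-3.26, -2.13 and -3.53 on the left relative to the core), while the diamonds of all genes are displaced by a common amount (median 0.79 on the left and -1.42 on the right).

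Markers of other cell types were read beside the members. Of 10 fibroblast markers, 10 had a positive log2 difference in Trem2 KO over AppNL-G-F mice at 9 months and edgeR called 0 of them, while 9 had p under 0.05 before adjustment, with a median of 1.18. They summed to 244 to 391 CPM in Trem2 KO at 9 months and 154 to 228 CPM at 3 months, against 151 to 191 CPM in AppNL-G-F mice at 9 months and 167 to 221 CPM at 3 months. Border macrophage markers such as Mrc1 and Cd163 summed to 41.9 to 56.0 CPM in Trem2 KO libraries at 9 months and 21.4 to 26.4 CPM at 3 months. In AppNL-G-F libraries they summed to 27.0 to 38.8 CPM at 9 months and 27.7 to 39.2 CPM at 3 months, and 8 of the 9 were tested, where edgeR called 0 by genotype at 9 months, 6 had p under 0.05 before adjustment, and the median was 0.82. The 11 monocyte, neutrophil and dendritic cell markers summed to 33.7 to 35.4 CPM in Trem2 KO libraries at 9 months and 25.2 to 30.3 CPM in the other 9. Zbtb46 and Flt3 made up most of each sum. Only 4 had counts enough to test, where edgeR called 0 by genotype at 9 months and 2 had p under 0.05 before adjustment. These were Ccr2 (1.72 ± 0.48) and Cd209a (0.88 ± 0.36), both higher in Trem2 KO. Ccr2 stood at 1.05 to 1.59 CPM in Trem2 KO and at 0.32 to 0.47 CPM in AppNL-G-F libraries of that age. Xcr1, which defines a dendritic cell type, was at 0 in all libraries of the other 3 groups and in 2 of the 3 Trem2 KO libraries at 9 months. T and NK cell markers summed to 0.57 to 2.74 CPM over the 12 libraries, with Gzma at 0 in all of them. Of 8 endothelial markers 2 were higher in Trem2 KO at 9 months (median 0.24), and of 8 mural cell markers 1 was (median 0.38). Of 8 oligodendrocyte markers 0 were called by genotype at 9 months and 0 had an unadjusted p under 0.05, with a median of 0.03. The part of these cells in the levels of Spp1, Gpnmb, Cd9 and Lgals3 was not tested beyond the covariate fits.

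Within Trem2 KO mice at 9 months, single libraries showed these markers and the members side by side. Replicate 2, the low library for Spp1 (25.01 CPM, against 53.5 and 54.7 CPM), was also the lowest of the 3 for fibroblast markers (4.12, against 4.602 and 4.633 log2 CPM). Replicate 3, the low library for Lgals3 (1.75 CPM) and Cd9 (105 CPM), had choroid plexus markers at 1.88 log2 CPM, against 6.54 and 6.58 in the other two. In AppNL-G-F mice at 9 months, replicate 2 held the lowest choroid plexus level (1.04 log2 CPM) and the highest Spp1 (70.5 CPM), with Lgals3 in the middle (3.06 CPM). In AppNL-G-F mice at 3 months, replicate 1 held the lowest choroid plexus level (1.40 log2 CPM) and the highest Lgals3 (1.79 CPM). Replicate 3 of that group, at 3.66 log2 CPM, held the lowest Lgals3 (0.83 CPM). With the choroid plexus score as a covariate Cd9 was called lower in Trem2 KO at 9 months (-0.34, edgeR adjusted p = 0.0138), and Lgals3 was called higher with age in Trem2 KO (0.98, edgeR adjusted p = 0.0415) and in AppNL-G-F mice (1.05, edgeR adjusted p = 0.045).

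**Figure D5:**
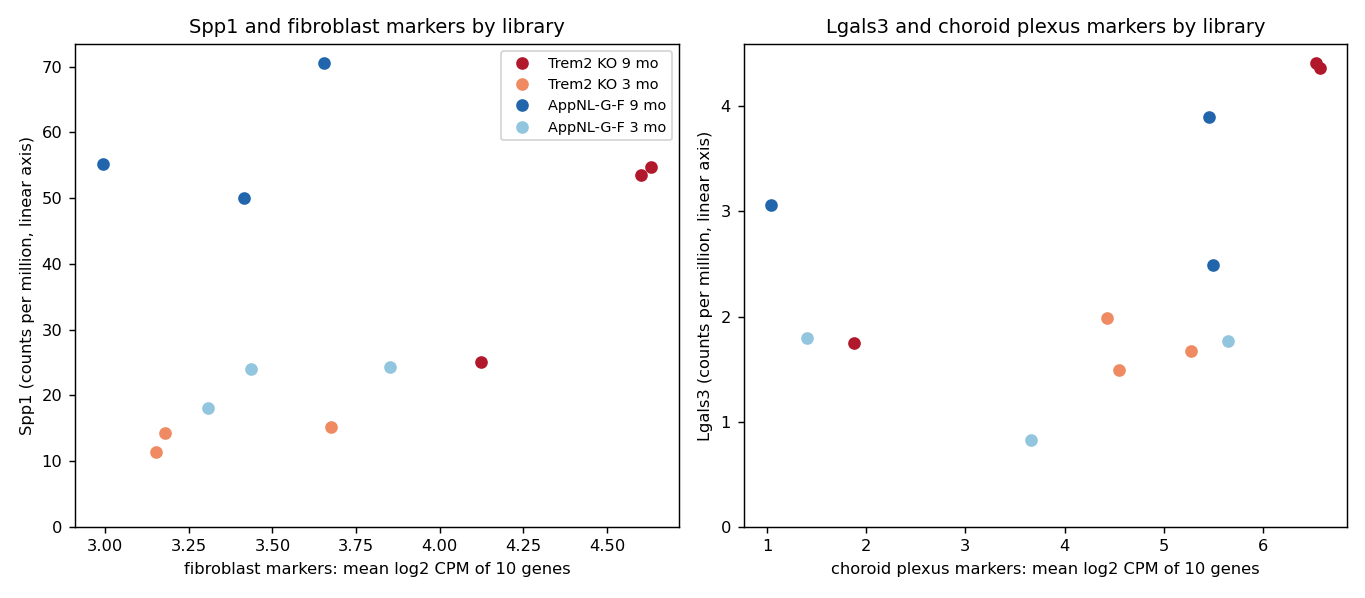
Spp1 in CPM against the mean log2 CPM of 10 fibroblast markers (left) and Lgals3 against the mean log2 CPM of 10 choroid plexus markers (right), 1 point per library, coloured by group. The 3 Trem2 KO libraries at 9 months have the highest fibroblast levels (4.12 to 4.63), and the Trem2 KO library with low choroid plexus markers (1.88) has the low Lgals3 level of 1.75 CPM. In AppNL-G-F mice at 3 months the library with the lowest choroid plexus level (1.40) has the highest Lgals3 level of its group (1.79 CPM).

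Likeness between profiles was measured as the root mean square difference of log2 CPM over the 12 libraries, after centring each gene on its own mean. Genes outside the set were searched among 14172 of the 19152 tested, those with a symbol and an average log2 CPM of at least 1. Less abundant genes, such as Ccl3 and Cd52, were not searched. Cst7, Clec7a and Itgax were closer to each other (0.749 for Clec7a and Itgax, 0.870 for Cst7 and Clec7a, 0.915 for Cst7 and Itgax) than to any other member, from which they were at least 1.686 apart. No searched gene outside the set was nearer. The closest to Cst7 was Ccl6 (1.371), and the closest to Clec7a was Cd74 (1.104), the invariant chain of class II molecules. The closest to Itgax was Ccl6 (1.161), followed by Cd74 (1.274) and Trem2 (1.333). Trem2 differs between the genotypes by design. Gpnmb ran with Cd68 (0.233), the cathepsin Ctss (0.277) and Itgb2 (0.304), and Spp1 with Fyb (0.347), Lcp1 (0.375) and the complement chain C1qa (0.380). Cd9 was nearest to Syngr2 (0.078), the lysosomal mannosidase Man2b1 (0.082) and Hpgds (0.101). Igf1 was nearest to Epb41l2 (0.106), Pde3b (0.108) and the microglial gene Aif1 (0.118), and Lgals3 to Tep1 (0.265), Catip (0.292) and Agpat2 (0.297). Lpl was nearest to E230029C05Rik (0.092), A230077H06Rik (0.110) and Poc1b (0.118), and Ank to Sirpa (0.040), Nefh (0.046) and Nmrk1 (0.047). Genes with little variation are near many others on this measure, so the distances describe these libraries and are not compared between members.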

How the data were processed

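Raw counts of reads per gene, which the authors deposited as 1 table of 56980 Ensembl identifiers in 12 hippocampal libraries, were used as deposited. Per the submitters' processing notes STAR 2.7.10a and featureCounts 2.0.3 were used with genome build GRCm39, besides DESeq2 1.36.0 under R 4.2.0. Not given in the sources used here were the annotation release, the strand setting and how reads with several alignments were handled. Per the labels' protocols, libraries came from a SMART-Seq mRNA kit. Groups follow the labels.

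Genes were kept by filterByExpr (count minimum 10, total minimum 15) and tested with edgeR 4.0.16 in R 4.3.3 (TMM scaling with factors of 0.993 to 1.012, robust quasi-likelihood test, 1 term per group, 8 residual degrees of freedom). A gene was called at a Benjamini-Hochberg adjusted p under 0.05 over all 19152 genes. Errors of log2 fold changes are standard errors from the test statistic. CPM used scaled library sizes. Exon lengths came from GENCODE annotation on GRCm38, and symbols were matched for 52073 identifiers. Replicates differed beyond sampling noise in every pair. Each library has its own mouse identifier. The alternatives were DESeq2 1.42.0, RLE size factors, no filter, fits of the compared groups alone, leaving out each library, choroid plexus and fibroblast scores (mean log2 CPM of their markers) as covariates, and core counts as library sizes. The test was tried on simulated data with the same spread for all genes, and no result here rests on that trial. From other lists, at most 4 genes of lowest p were named and at most 3 abundant ones among those not called. Members and lists were chosen with earlier results of these data known.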

Additional observations from a re-analysis of the deposited data

Results flagged for a closer look

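For 3 of the 10 genes the change between 3 and 9 months differed between Trem2 KO and AppNL-G-F mice by a test of the difference itself, the interaction of age and genotype in edgeR's quasi-likelihood test. Over all 19152 genes, 0.266% were called in this test. For Cst7 the interaction was -3.77 on the log2 scale, from a rise of 2.81 in Trem2 KO and of 6.57 in AppNL-G-F mice. Its 3-month level rests on 22 counts in Trem2 KO and 29 counts in AppNL-G-F libraries. The Cst7 interaction was called in only 3 of the 12 fits without 1 library, with an edgeR adjusted p of up to 0.41. For Gpnmb it was -1.49, from a rise of 0.97 in Trem2 KO and of 2.46 in AppNL-G-F mice. For Lpl it was -0.78, from a log2 difference of -0.24 in Trem2 KO, which did not pass the test, and a rise of 0.54 in AppNL-G-F mice. The fibroblast markers, which were highest in Trem2 KO libraries at 9 months, moved with the same contrast (median interaction 1.29 over 10 markers, 0 called by edgeR and 7 at an unadjusted p under 0.05).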

How the results depend on the processing

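Of 937 values of single members under an alternative, 835 kept their direction and their side of the threshold, 40 were no longer called, 29 became called and 33 turned direction. With RLE size factors 50 of 50 were kept. With each library left out in turn, the members called numbered 6 to 7 for Trem2 KO against AppNL-G-F at 9 months, 0 to 0 at 3 months, 4 to 8 with age in Trem2 KO, 6 to 10 with age in AppNL-G-F and 2 to 3 for the interaction. The genes called over the whole table numbered 175 to 556, 26 to 154, 769 to 1920, 788 to 1523 and 29 to 76 in the same order, where all libraries gave 398, 113, 1667, 1276 and 51.

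At 3 months the members called by genotype were 1 with DESeq2 (Lpl), 2 without the filter (Gpnmb and Lpl) and 1 with the compared groups alone (Spp1), a fit in which Cst7, Clec7a and Itgax were not tested. The genes called then were 259, 347 and 218, and 178 with the choroid plexus score. At 9 months 831 genes were called without the filter (437 higher, 394 lower, against 131 higher and 267 lower with it). The p-values of the fit without the filter are not comparable with those of the main fit. For the interaction 100 were called with DESeq2, 187 without the filter and 81 with the choroid plexus score. With the fibroblast score as a covariate 32 genes and 3 members were called at 9 months, 71 genes and 1 member with age in Trem2 KO, and 3 genes and 0 members for the interaction. That score separates the Trem2 KO libraries at 9 months from the rest, so it and that group cannot be told apart in full. With core counts as library sizes 5 members were called for the interaction (2 higher, 3 lower).

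Direction turned in these cases. For the single libraries and the covariates the cause was not tested. Leaving out each library in turn gave -0.76 to 0.84 for Cst7, -0.072 to 0.41 for Lgals3 and -0.15 to 0.020 for Igf1 by genotype at 3 months, -0.040 to 0.47 for Lgals3 by genotype at 9 months, -0.041 to 0.011 for Ank with age in Trem2 KO, and -0.25 to 0.25 for Lgals3 in the interaction. The fibroblast score gave -0.10 for Lgals3 at 9 months, 0.094 for Ank and -0.050 for Igf1 with age in Trem2 KO, and -0.92 for Spp1 in the interaction, and the choroid plexus score gave -0.0057 for Lgals3 at 9 months. The core scaling accounts for 17 of the 33 turns and the other alternatives for 16. It shifts all genes by nearly the same amount, with medians of 0.79 between genotypes at 9 months and 0.75 for the interaction. With age the medians were -0.67 in Trem2 KO and -1.42 in AppNL-G-F. A turn on this scale means that a member changed less than the core, and not that its share of all reads turned. The core scaling gave 0.41 for Spp1, 0.33 for Lpl, 0.51 for Cd9, 0.33 for Igf1 and 0.53 for Ank at 9 months. It gave -0.15 for Cd9 and -0.56 for Igf1 with age in Trem2 KO. With age in AppNL-G-F it gave -0.024 for Spp1, -0.88 for Lpl, -0.51 for Cd9, -0.91 for Igf1, -0.31 for Lgals3 and -1.23 for Ank. In the interaction it gave 0.36 for Cd9, 0.36 for Igf1, 0.70 for Lgals3 and 0.55 for Ank.

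No paired analysis was possible because replicate numbers were given in accession order and each mouse entered once. Depth limits Cst7, Clec7a and Itgax at 3 months, where libraries held 0 to 21 counts of each.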
